A study of Mus musculus with 4 samples.

Results

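The Wnt pathway genes described here are 55 genes named by family in E13.5 mouse palatal mesenchyme that carried or lacked the forkhead transcription factor Foxf2. They comprise 19 Wnt ligands, 12 receptors (the Frizzled genes Fzd1 to Fzd10 with Lrp5 and Lrp6), 10 secreted antagonists, 4 R-spondin agonists, the 2 Kremen co-receptors for Dkk proteins, 5 nuclear effectors and 3 feedback targets. The genes were taken by symbol, all 55 symbols were present among the 22096 gene symbols in the expression tables, and the rule used family membership rather than a measured value. Of the 55 genes, 34 reached a mean of at least 1 FPKM (read fragments scaled to transcript length and to library size) over the embryos and were tested among 11128 genes, and 21 did not. RFP-positive cells were sorted from the microdissected palatal shelves of 4 embryos at E13.5, and RNA-seq libraries were made from each embryo. The controls were 1 Foxf2+/+;Osr2RFP/+ embryo and 1 Foxf2+/-;Osr2RFP/+ embryo, and the mutants were 2 Foxf2-/-;Osr2RFP/+ embryos. All 4 embryos therefore carried 1 RFP knock-in allele at Osr2, on a mixed genetic background, and the sort kept cells in which the Osr2 locus was active. The Foxf2 null allele was constitutive, so every tissue of the mutants carried it, while the related gene Foxf1 was intact. Each control genotype was represented by 1 embryo, and the question was which Wnt pathway transcripts differed in the mutant palatal mesenchyme.

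Wnt ligands are secreted lipid-modified proteins that bind Frizzled receptors together with Lrp5 or Lrp6. In the canonical branch, binding keeps beta-catenin (Ctnnb1) from being degraded, and beta-catenin then enters the nucleus and activates transcription with Lef1 and the Tcf proteins. Axin2, Nkd1 and Nkd2 are transcribed in response and dampen the signal. Other branches, for which Wnt5a is the best known ligand, act on cell polarity and movement and do not need beta-catenin. Sfrp proteins, Frzb and Wif1 bind Wnt ligands outside the cell, Dkk proteins block Lrp5 and Lrp6 with the help of Kremen proteins, and R-spondins raise the amount of receptor at the cell surface. In the palatal shelves Wnt signals pass between the epithelium and the mesenchyme, and loss of some pathway members is known to cause cleft palate.

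Sequence just upstream of the start of transcription is shown for 4 of the genes, because Foxf2 is a forkhead protein and Lef1 and the Tcf proteins are themselves members of this group. RefSeq promoter windows on GRCm38.p6, a later build than the mm9 assembly of the expression tables, held 38 of the 55 genes. Each window was the 250 bases before a start. The 32851 windows over all genes count every listed start, so a gene can enter more than once. Each of the 38 genes is read at its most upstream start only, so the shares are not strictly alike. The forkhead core TAAACA, read on the other strand as TGTTTA, occurred in 3952 of the 32851 windows, or 12.0%. It occurred in 3 of the 38, those of Wif1, Rspo4 and Tcf7l2. The Tcf and Lef core CTTTGA, read on the other strand as TCAAAG, occurred in 4544 windows, or 13.8%, and in 4 of the 38, those of Wnt11, Fzd1, Frzb and Dkk1. Neither core overlaps the other, and such short matches are a description of the letters only. Fzd4 and Lef1 are shown because they had the largest differences of the receptors and nuclear effectors, and neither core was found in those windows. Of the 24 tested genes with a window, 3 held the Tcf and Lef core and 2 the forkhead core. Mutants and controls did not overlap for 4 of these, Frzb and Fzd1 for Tcf and Lef and Tcf7l2 and Wif1 for forkhead. The groups also did not overlap for 21 of all 34 tested Wnt genes and for 5087 of all 11128 genes tested. Any relation between a core and this separation was not tested. Frzb and Tcf7l2 are shown, with the core in capitals, because they had the larger difference of each pair. The windows lie at chr7:89404116-89404365 on the plus strand for Fzd4, chr3:131110047-131110296 on the plus strand for Lef1, chr2:80447397-80447646 on the minus strand for Frzb and chr19:55741560-55741809 on the plus strand for Tcf7l2, and each is written 5′ to 3′ along the gene's strand.
Fzd4: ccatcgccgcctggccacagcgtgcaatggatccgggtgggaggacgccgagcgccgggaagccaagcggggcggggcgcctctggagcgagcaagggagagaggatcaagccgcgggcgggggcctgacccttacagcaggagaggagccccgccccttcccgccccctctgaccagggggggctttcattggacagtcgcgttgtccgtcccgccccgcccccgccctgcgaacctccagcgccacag
Lef1: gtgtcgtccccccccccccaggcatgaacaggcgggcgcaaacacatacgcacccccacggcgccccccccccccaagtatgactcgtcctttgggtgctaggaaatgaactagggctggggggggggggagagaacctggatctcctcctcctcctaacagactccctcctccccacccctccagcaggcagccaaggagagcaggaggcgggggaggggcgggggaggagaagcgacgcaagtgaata
Frzb: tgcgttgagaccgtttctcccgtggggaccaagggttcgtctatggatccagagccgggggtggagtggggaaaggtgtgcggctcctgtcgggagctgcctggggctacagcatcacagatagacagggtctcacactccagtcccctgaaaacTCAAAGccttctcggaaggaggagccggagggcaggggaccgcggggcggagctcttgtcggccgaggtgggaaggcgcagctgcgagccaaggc
Tcf7l2: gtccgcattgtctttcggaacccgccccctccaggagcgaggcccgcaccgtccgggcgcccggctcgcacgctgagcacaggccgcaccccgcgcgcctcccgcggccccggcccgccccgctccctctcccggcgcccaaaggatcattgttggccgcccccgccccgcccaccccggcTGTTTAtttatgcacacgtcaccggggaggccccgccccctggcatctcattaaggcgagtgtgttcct
The Tcf and Lef core of Frzb spans positions -95 to -90 from the start, and the forkhead core of Tcf7l2 spans -69 to -64. The GC content was 72.8% for Fzd4, 66.4% for Lef1, 64.4% for Frzb and 72.8% for Tcf7l2, against a median of 52.4% over all windows.

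The embryo labels were checked with Foxf2 and the sort with Osr2. Foxf2 gave 85.4 FPKM with 2 intact Foxf2 alleles, 45.1 with 1, and 1.41 and 2.28 in the mutant pair, and its difference passed the test (log2 difference -5.03 ± 0.31, SE, adjusted p = 0.00405, limma). Osr2 gave 143, 144, 129 and 147 FPKM, the embryos taken in that order. All 8 mesenchyme markers, among them Prrx1, Twist1 and Pdgfra, averaged at least 1 FPKM. Depth could not be read directly, but the deposited coverage values put the libraries within 1.19-fold of each other. Of the lists for other cell types, red blood cell transcripts differed most, with 7 markers summing to 296, 1780, 1550 and 4240 FPKM in the Foxf2+/+, Foxf2+/- and the Foxf2-/- embryos, while 10 epithelial markers summed to 11.7, 12.7, 11.8 and 14.1 and 5 endothelial markers to 0.404, 0.608, 0.893 and 1.5. In the same order, 5 leukocyte markers summed to 8.6, 11.6, 8.76 and 14.4 FPKM, 5 neural and glial markers to 3.22, 5.22, 5.31 and 5.69, and 5 skeletal muscle markers, with Myog at 0, to 0.341, 0.302, 0.104 and 0.269. In sorted bulk samples, fewer cells of a type and less RNA per cell cannot be told apart.

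None of the 34 tested Wnt genes passed the test between Foxf2-/- mutants and controls, which required a limma adjusted p under 0.05 and a change over 1.5-fold. That rule called 7 of 11128 genes, or 0.0629%. The unadjusted limma p was under 0.05 for 10 of the 34 Wnt genes and for 1457 of all 11128. That share was larger among the Wnt genes. With 2 embryos against 2, an exact two-sided permutation test cannot give a p below 0.333, so the values below are described embryo by embryo, with the Foxf2+/+ embryo given before the Foxf2+/- embryo wherever both controls are listed. The median log2 difference of the 34 genes was -0.12, beside -0.08 over all genes tested. A second criterion asked for a mutant mean over 1.5-fold from each control in the same direction. It took 3 of the 34 Wnt genes as lower in the mutants (8.82%), namely Wnt2, Wnt16 and Fzd4, where the share over all genes was 0.665%, and 0 as higher, where the share was 0.71%. Both mutants lay above both controls for 7 of the 34 (20.6%, beside 9.88% of all genes) and below both controls for 14 (41.2%, beside 35.8%). That background depends on scaling. After median-ratio scaling between embryos, 21% of all genes lay above and 21.5% below, and the Wnt genes then numbered 7 above and 12 below.

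**Figure D1:**
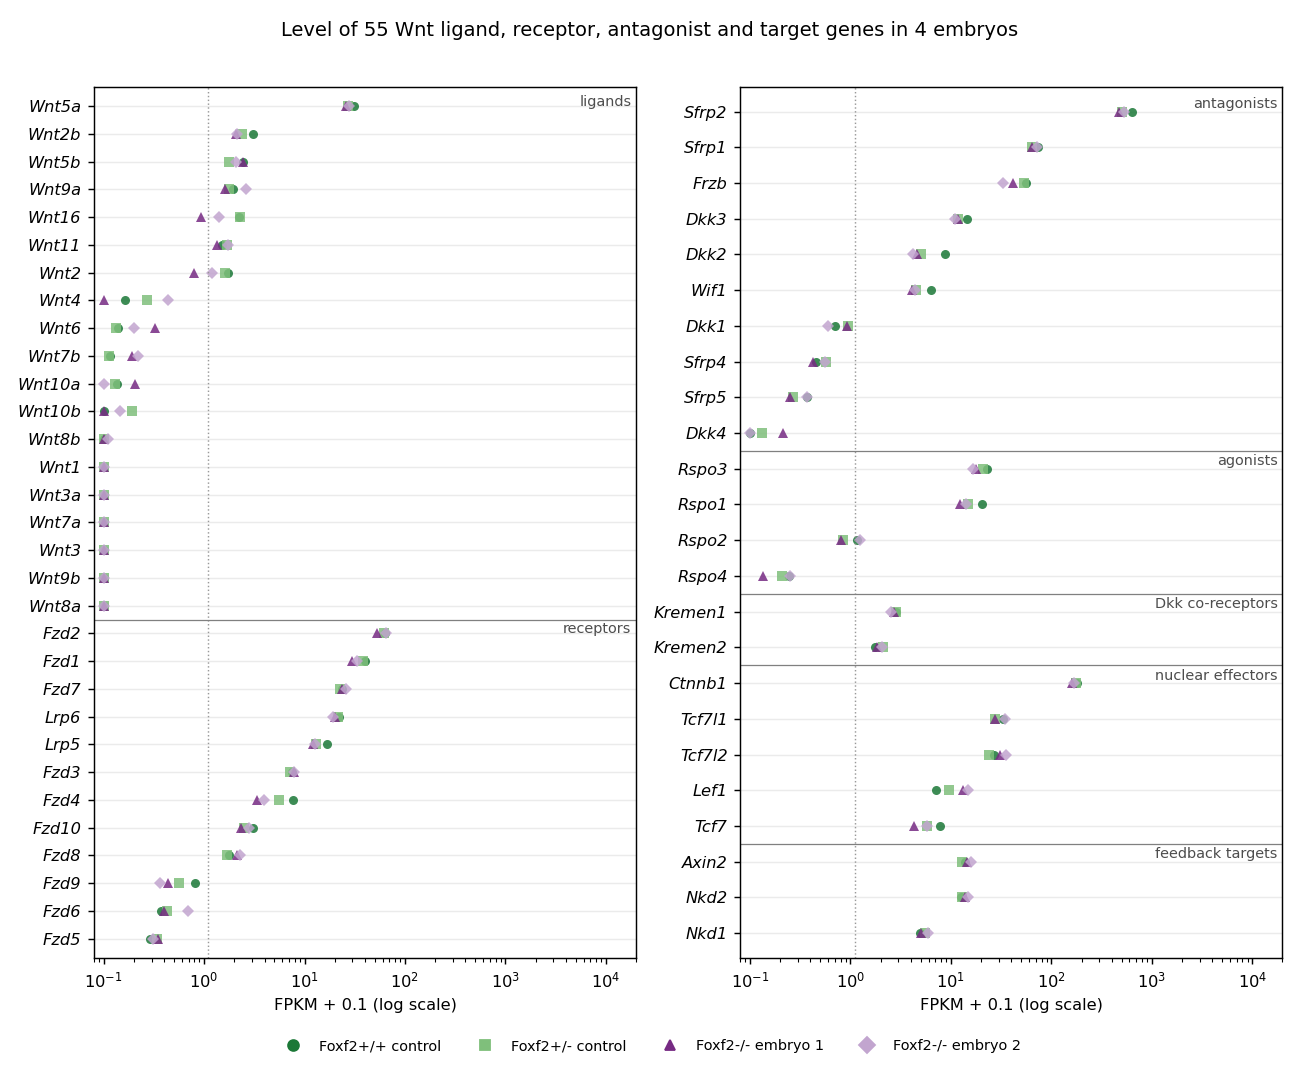
Level of each of the 55 genes in each embryo, grouped by role and ordered by mean, as FPKM + 0.1 on a log axis. The dotted line marks 1 FPKM. Ligands other than Wnt5a lie at or below 2.94 FPKM, while Sfrp2 lies between 473 and 642.

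Wnt ligand transcripts in the palatal mesenchyme were mostly Wnt5a. Of the 19 ligand genes, 7 were tested, and 6 (Wnt1, Wnt3, Wnt3a, Wnt7a, Wnt8a and Wnt9b) were listed at 0 in all 4 embryos. Wnt5a, the main non-canonical ligand, gave 31.2 FPKM with 2 intact Foxf2 alleles, 27.1 with 1, and 26.0 and 27.7 in the mutant pair. The mutants overlapped the controls (log2 difference -0.11 ± 0.10, SE, adjusted p = 0.663). Wnt5a made up 71.5% and 70.6% of all ligand FPKM with a working Foxf2 allele, against 74.2% and 71.1% without. The remaining 18 ligand genes together summed to 12.4, 11.3, 9.06 and 11.2 FPKM.

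Wnt16 and Wnt2 were the ligands with the largest differences, and both are transcribed at low levels. Wnt16 (mm9 chr6:22238227-22248522), a ligand known from bone and joint tissue, gave 2.11 and 2.18 FPKM in control cells against 0.829 and 1.32 in mutant cells. The groups did not overlap and the Foxf2+/- embryo was no lower than the Foxf2+/+ embryo (log2 difference -0.97 ± 0.25, SE, adjusted p = 0.245). Wnt2 (mm9 chr6:17938940-17980445), a canonical ligand of mesenchymal tissues on the same chromosome as Wnt16, gave 1.63 and 1.52 FPKM in control cells against 0.685 and 1.1 in mutant cells. Again the groups did not overlap (log2 difference -0.78 ± 0.27, SE, adjusted p = 0.328). These levels rest on few reads, roughly 37 to 112 per embryo for Wnt16 and 39 to 99 for Wnt2 as estimated from coverage. In both genes the second mutant embryo was higher than the other mutant by 0.61 on the log2 scale. That gap was smaller than the difference between the groups. Raising the constant added before the logarithm from 0.1 to 0.5 left only Wnt16 beyond 1.5-fold from both controls. Without the first mutant embryo the log2 difference was -0.48 for Wnt2, which was then short of 1.5-fold, and -0.66 for Wnt16, which was not.

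The remaining tested ligands stayed close to the controls. Wnt2b, another canonical ligand, gave 2.94 and 2.29 FPKM in control cells against 1.99 and 2.04 in mutant cells, lower without overlap (log2 difference -0.35, adjusted p = 0.45, and -0.18 without the Foxf2+/+ embryo). Wnt5b, a relative of Wnt5a, gave 2.32 and 1.69 FPKM in control cells against 2.35 and 2.00 in mutant cells, with no separation. Wnt9a and Wnt11 also overlapped, with log2 differences of 0.15 and -0.06. Wnt6 and Wnt7b, which are best known from epithelia, were far below the filter at 0.0379 and 0.0326 FPKM in control cells against 0.224 and 0.0998 in mutant cells for Wnt6, and at 0.0157 and 0.0135 against 0.0921 and 0.122 for Wnt7b. They were named after their values were seen. Both mutants were above both controls for these genes, on roughly 1 to 12 reads per embryo, and the epithelial markers Epcam (1.03, 0.987, 0.901 and 1.69 FPKM) and Cdh1 (0.255, 0.231, 0.331 and 0.715) were present at low levels in all 4 embryos. Whether epithelial RNA accounts for these reads was not tested.

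Among the tested receptors, Fzd4 stood apart. Fzd4 (mm9 chr7:96552876-96558620), a Frizzled that also serves the non-Wnt ligand norrin, gave 7.52 FPKM with 2 intact Foxf2 alleles, 5.46 with 1, and 3.24 and 3.87 in the mutant pair. The heterozygote, 1 embryo, lay between the wild type and both mutants. Over all genes tested, 43.8% had that embryo between the wild type and the mutant mean. The mutant mean was lower by 1.07 on the log2 scale against the Foxf2+/+ embryo and by 0.61 against the Foxf2+/- embryo, that is 1.79-fold lower than the control mean (log2 difference -0.84 ± 0.17, SE, adjusted p = 0.168). The unadjusted limma p was 0.00159. Over the alternative settings the log2 difference ran from -1.08 to -0.61 and the adjusted p from 0.0676 to 0.652. After median-ratio scaling the mutant mean lay 0.56 below the Foxf2+/- embryo and so was just short of 1.5-fold. It was short of 1.5-fold against the same embryo without the first mutant too, when the log2 difference from the control mean was -0.71.

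The more abundant receptors differed less. Fzd2 was the highest receptor transcript, at 62.9 and 61.8 FPKM in control cells against 53.1 and 64.4 in mutant cells, and made up 33.8% to 37.5% of the FPKM of the 12 receptor genes. The mutants lay on either side of the controls. Fzd1 gave 39.7 and 37.7 FPKM in control cells against 29.9 and 32.9 in mutant cells, lower without overlap (log2 difference -0.30 ± 0.09, SE, adjusted p = 0.293). Fzd7 gave 23.6 and 22.6 FPKM in control cells against 23.6 and 25.5 in mutant cells, barely above both controls (log2 difference 0.09). The co-receptors Lrp5 and Lrp6, which pair with Frizzleds in the canonical branch, were lower in both mutants by small amounts (log2 differences -0.26 and -0.14, adjusted p = 0.446 and 0.54). For Lrp6 the separation was lost after median-ratio scaling. Fzd3 and Fzd8 were above both controls, with log2 differences of 0.10 and 0.35, and Fzd10 overlapped. Fzd5, Fzd6 and Fzd9 were below the filter. Fzd5 and Fzd6 overlapped between the groups. Fzd9 gave 0.715 and 0.459 FPKM in control cells against 0.334 and 0.268 in mutant cells, lower without overlap (log2 difference -0.76). That rests on roughly 17 to 39 reads per embryo, and Fzd9 was named after its values were seen. Summed over the 12 genes, receptor transcripts came to 186, 174, 155 and 172 FPKM.

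**Figure D2:**
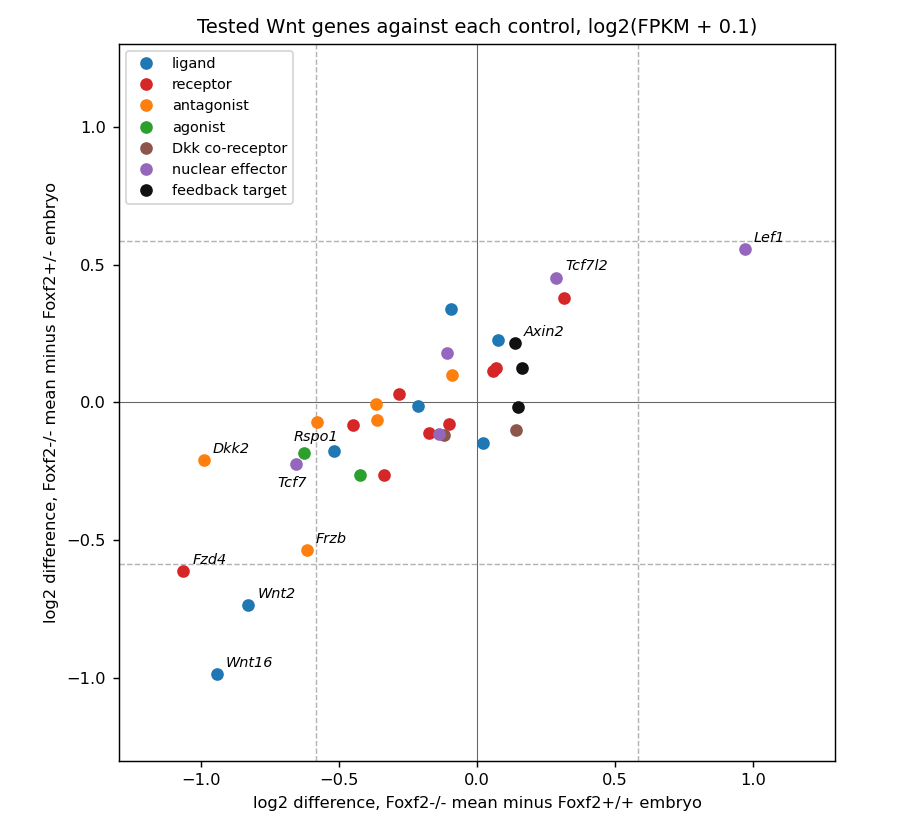
Log2 difference of the mutant mean from the Foxf2+/+ embryo (horizontal axis) and from the Foxf2+/- embryo (vertical axis) for the 34 tested genes on the log2(FPKM + 0.1) scale, coloured by role. Dashed lines mark a 1.5-fold difference. Wnt2, Wnt16 and Fzd4 lie beyond it on both axes, and Lef1 lies beyond it on the horizontal axis only, at 0.97 and 0.56.

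Secreted antagonists were the most abundant group, through Sfrp2. Sfrp2, a Frizzled-related protein that binds Wnt ligands, gave 642 and 500 FPKM in control cells against 473 and 524 in mutant cells, and held 78.2% to 80.8% of the FPKM of the 10 antagonist genes. The Foxf2+/+ embryo was the highest and the other 3 embryos were close together (log2 difference -0.19 ± 0.14, SE, adjusted p = 0.597). Its relative Sfrp1 gave 72.8 and 63.7 FPKM in control cells against 64.8 and 71.9 in mutant cells, with a log2 difference of 0.00. Frzb (mm9 chr2:80252127-80287553), another Frizzled-related antagonist known from cartilage, gave 56.5 and 53.4 FPKM in control cells against 41.4 and 32.7 in mutant cells. Here the controls were close to each other and both mutants were lower (log2 difference -0.58 ± 0.12, SE, 1.49-fold, adjusted p = 0.168, unadjusted p = 0.00173). With 1 embryo left out in turn, the log2 difference of Frzb ran from -0.75 to -0.41. Of the 4 cartilage and bone markers, Col2a1 gave 41.9, 41.5, 40.1 and 42.3 FPKM and Sox9 17.2, 15.6, 13.2 and 16.1, and all 4 with Runx2 and Sp7 summed to 86.8, 83.4, 82.1 and 86.6. Their part in the Frzb difference was not tested.

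Dkk2 and Wif1 differed mainly between the control genotypes. Dkk2, which blocks Lrp5 and Lrp6, gave 8.61 FPKM with 2 intact Foxf2 alleles, 4.96 with 1, and 4.46 and 4.10 in the mutant pair. The mutants were below both controls but within a narrow distance of the heterozygote (log2 difference -0.60 ± 0.23, SE, adjusted p = 0.348). Without the Foxf2+/+ embryo the log2 difference was -0.21, and without the Foxf2+/- embryo it was -0.99. Wif1, which sequesters Wnt ligands, followed the same order at 6.31, 4.40, 4.04 and 4.33 FPKM. Dkk3, a divergent Dkk relative, overlapped between the groups with a log2 difference of -0.21. Dkk1, Dkk4, Sfrp4 and Sfrp5 were all below 1 FPKM in every embryo.

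R-spondin agonists were lower in both mutants where they were tested. Rspo3, the highest of the 4, gave 23.0 and 20.6 FPKM in control cells against 17.7 and 16.6 in mutant cells, without overlap (log2 difference -0.34 ± 0.10, SE, adjusted p = 0.288). Rspo1 gave 20.2 and 14.8 FPKM in control cells against 12.2 and 14.0 in mutant cells, again without overlap (log2 difference -0.41 ± 0.15, SE, adjusted p = 0.344). For Rspo1 most of the distance was to the Foxf2+/+ embryo, 0.63 on the log2 scale against 0.18 to the Foxf2+/- embryo. Rspo2 gave 1.06 and 0.75 FPKM in control cells against 0.714 and 1.16 in mutant cells, with no separation and below the filter. Summed agonist transcripts were at 44.4, 36.3, 30.6 and 31.9 FPKM. The Kremen co-receptors were low in all embryos, with Kremen1 at 2.73 and 2.73 FPKM in control cells against 2.59 and 2.42 in mutant cells, and Kremen2 at 1.67 and 2.00 against 1.74 and 1.98.

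The nuclear effectors differed in direction from each other. Lef1 (mm9 chr3:130813389-130926249), the DNA-binding partner of beta-catenin that is itself often induced by Wnt signals, gave 7.07 FPKM with 2 intact Foxf2 alleles, 9.45 with 1, and 13.1 and 14.8 in the mutant pair. Both mutants were above both controls and the heterozygote was intermediate. With 1 embryo per control genotype, Lef1 and Fzd4 thus followed the genotype order in opposite directions. The mutant mean of Lef1 was 1.7-fold the control mean (log2 difference 0.76 ± 0.15, SE, adjusted p = 0.164, unadjusted p = 0.00109). Against the Foxf2+/- embryo the log2 difference was 0.56, short of 1.5-fold, and after median-ratio scaling it was 0.61, past it. Over the alternative settings the adjusted p of Lef1 ran from 0.0547 to 0.571.

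Tcf7, the closest relative of Lef1, had the opposite sign, at 7.75 and 5.71 FPKM in control cells against 4.16 and 5.72 in mutant cells. The second mutant matched the Foxf2+/- embryo, so the groups overlapped (log2 difference -0.44 ± 0.19, SE, adjusted p = 0.394). Without the first mutant or the Foxf2+/+ embryo its log2 difference was -0.22, and without the second mutant it was -0.67. Tcf7l2 gave 27.0 and 24.0 FPKM in control cells against 30.5 and 35.5 in mutant cells, higher without overlap (log2 difference 0.37 ± 0.11, SE, adjusted p = 0.293). Its value is the sum of 8 transcript entries, whose shares Cufflinks estimates from overlapping reads, and the highest entry alone gave 11.7 and 13.2 FPKM in control cells against 16.6 and 15.0 in mutant cells. Tcf7l1, which acts mainly as a repressor, gave 33.3 and 27.2 FPKM in control cells against 27.5 and 34.6 in mutant cells, each group spanning the same range. Ctnnb1 was far more abundant, at 181 and 178 FPKM in control cells against 159 and 169 in mutant cells (log2 difference -0.13 ± 0.09, SE, adjusted p = 0.572).

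Feedback targets read out canonical signalling, and all 3 had log2 differences above 0 of small size. Axin2, the most widely used readout, gave 13.6 and 12.9 FPKM in control cells against 14.3 and 15.6 in mutant cells, above both controls (log2 difference 0.18 ± 0.10, SE, adjusted p = 0.481). Nkd2 gave 12.6 and 12.9 FPKM in control cells against 13.6 and 14.6 in mutant cells, also above both (log2 difference 0.14 ± 0.09, SE, adjusted p = 0.553). Nkd1 gave 4.80 and 5.40 FPKM in control cells against 4.93 and 5.77 in mutant cells, with overlap. Without the Foxf2+/+ embryo, or without the second mutant, the log2 difference of Nkd1 was below 0 at -0.02 and -0.05. For Axin2 the sign was positive in every alternative run, between 0.11 and 0.26.

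Read by role, the median log2 differences were -0.11 for the 7 tested ligands, -0.13 for the 9 receptors, -0.27 for the 6 antagonists, -0.37 for the 2 agonists, -0.05 for the 2 Kremen genes, 0.04 for the 5 nuclear effectors and 0.14 for the 3 feedback targets. After median-ratio scaling, which moved the median of all genes from -0.08 to 0.00, the same medians were -0.03, -0.05, -0.19, -0.29, 0.03, 0.12 and 0.22. Ligands, receptors, antagonists and agonists thus kept a median below 0, and nuclear effectors and feedback targets one above 0, under both scalings. The Kremen median changed sign.

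**Figure D3:**
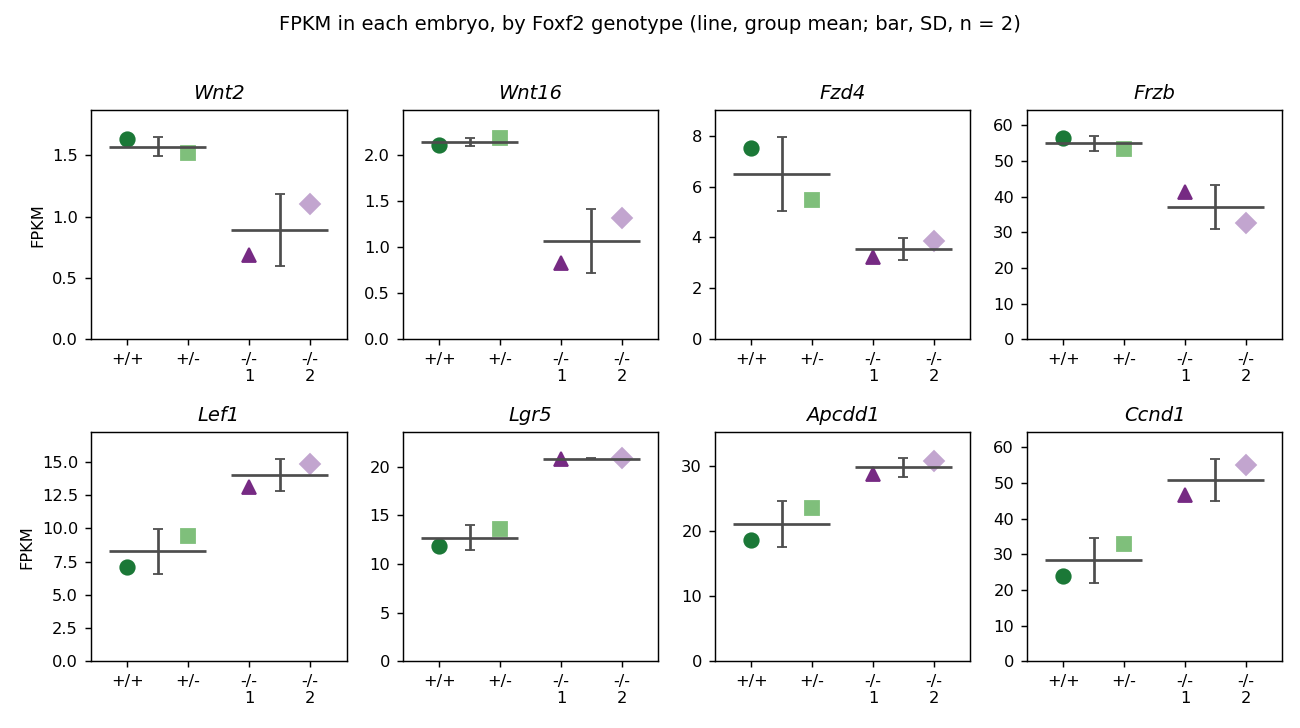
FPKM in each embryo for 5 of the 55 genes (Wnt2, Wnt16, Fzd4, Frzb and Lef1) and 3 further pathway genes (Lgr5, Apcdd1 and Ccnd1), with the mean (line) and SD (bar, n = 2) of controls and mutants and each axis starting at 0. The panels were picked from the named genes. In every panel both mutants lie on the same side of both controls, and in all but Wnt16 the Foxf2+/- embryo lies between the Foxf2+/+ embryo and the mutants. Over all genes tested, 43.8% had that embryo between the Foxf2+/+ embryo and the mutant mean. Cthrc1, not shown, had its lowest value in the Foxf2+/- embryo.

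A further 61 Wnt pathway genes were read alongside, covering ligand secretion, receptor turnover, the planar polarity core, the beta-catenin destruction complex, nuclear cofactors and common targets. Of these, 54 were tested and 0 passed limma in either direction. The unadjusted limma p was under 0.05 for 11 of the 54, a larger share than the 1457 of all 11128. Beyond 1.5-fold from both controls, 2 were higher in the mutants (3.7%, beside 0.71% of all genes) and 0 were lower (beside 0.665%). Both mutants lay above both controls for 12 of the 54 (22.2%, beside 9.88% of all genes) and below for 16 (29.6%, beside 35.8%), and the median log2 difference was -0.02. The balance turned with scaling. After median-ratio scaling, 20 of the 54 lay above both controls (37.0%, beside 21% of all genes) and 8 below (14.8%, beside 21.5%), with a median of 0.06.

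The 5 largest differences in that list were all above 0. Lgr5, an R-spondin receptor and itself a Wnt target in several tissues, gave 11.8 and 13.6 FPKM in control cells against 20.8 and 20.9 in mutant cells. The mutants were almost identical and well above both controls (log2 difference 0.71 ± 0.10, SE, 1.64-fold, adjusted p = 0.0926). Ccnd1, the cyclin D1 gene, a target of Wnt and of many growth signals, gave 23.8 and 32.8 FPKM in control cells against 46.7 and 54.9 in mutant cells. It followed the genotype order like Lef1 (log2 difference 0.86 ± 0.16, SE, 1.81-fold, adjusted p = 0.142). Ccnd1 passed the test in 2 alternatives, with the number of null alleles as a linear term (adjusted p = 0.0398) and without the Foxf2+/- embryo (adjusted p = 0.043), over a range of 0.0398 to 0.487.

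Apcdd1, a membrane Wnt inhibitor induced by the pathway, gave 18.6 and 23.6 FPKM in control cells against 28.7 and 30.8 in mutant cells, in the same genotype order (log2 difference 0.50 ± 0.12, SE, adjusted p = 0.235, and 0.33 without the Foxf2+/+ embryo). Cthrc1, a secreted cofactor for non-canonical Wnt signalling, gave 7.45 and 4.80 FPKM in control cells against 8.54 and 11.3 in mutant cells. Its lowest value was in the Foxf2+/- embryo (log2 difference 0.71 ± 0.21, SE, adjusted p = 0.293), and without that embryo the log2 difference was 0.39. Celsr2, a planar polarity cadherin, gave 1.16 and 1.36 FPKM in control cells against 1.88 and 2.10 in mutant cells, higher without overlap (log2 difference 0.62 ± 0.20, SE, adjusted p = 0.299). Some other common targets in the list did not share this sign. Myc was below both controls in both mutants, at 23.5 and 19.6 FPKM in control cells against 16.5 and 18.1 in mutant cells (log2 difference -0.31, adjusted p = 0.335), while Sp5 and Cd44 overlapped, with log2 differences of -0.34 and -0.01. Ctnnbip1, which keeps beta-catenin from binding Tcf proteins, had the lowest log2 difference of the 54, with 12.1 and 10.5 FPKM in control cells against 8.37 and 8.19 in mutant cells (log2 difference -0.44, adjusted p = 0.231). Myc, Sp5, Cd44 and Ctnnbip1 were named after their values were seen.

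Where the Foxf2+/- embryo fell was counted for the 34 tested genes. It lay between the Foxf2+/+ embryo and the mutant mean for 20 of them (58.8%), beside 43.8% of all genes tested and 21 of the 54 further pathway genes (38.9%). The 20 included Fzd4, Lef1, Frzb, Dkk2, Rspo1 and Rspo3. These counts used values without scaling between embryos, and they depend on it. After median-ratio scaling, Wnt5a and Sfrp2 left this order, their mutant means lying 0.04 and 0.05 above the Foxf2+/- embryo. Fzd2, Kremen1 and Ctnnb1 also left it, and Nkd1 entered it. The share over all genes was not counted after that scaling. The SD over all tested genes of the log2 difference between the control genotypes was 0.28, about the 0.27 between the mutants, and 1 embryo per control genotype means that allele number and variation between embryos cannot be told apart. The summed red blood cell markers also had the Foxf2+/- embryo between the Foxf2+/+ embryo and the mutant mean, and their part in these orders was not tested.

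**Figure D4:**
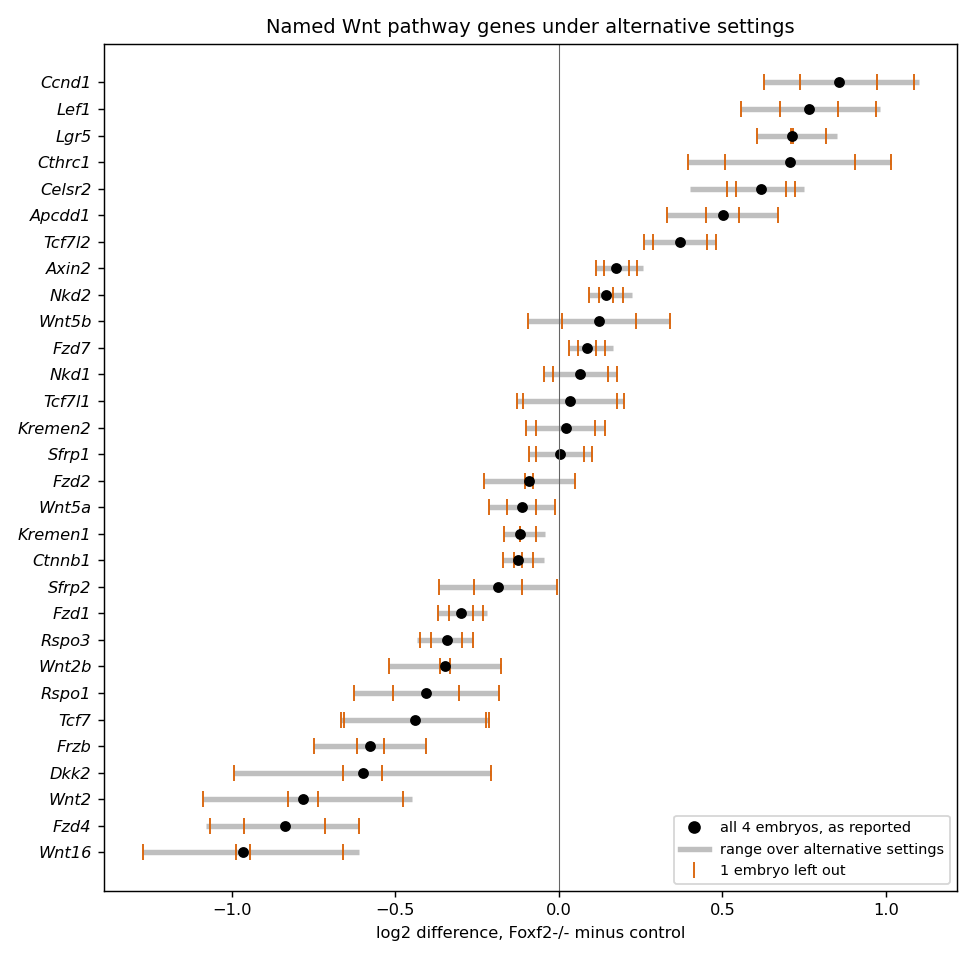
Log2 difference, Foxf2-/- minus control, for 30 named genes with all 4 embryos (black), its range over up to 16 alternative settings (grey bar) and its values with 1 embryo left out (orange ticks). Wnt16, Fzd4, Wnt2 and Frzb stay below 0 and Ccnd1, Lef1 and Lgr5 stay above 0 throughout, while the bars of Sfrp1, Tcf7l1, Kremen2, Nkd1, Wnt5b and Fzd2 cross 0.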

How the data were processed

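Per the labels and the study's methods, palatal shelves were microdissected at E13.5, RFP-positive cells were sorted, and single-end reads from Nextera libraries were aligned by the authors with Tophat and Bowtie 0.12.7 to mm9. The authors deposited FPKM values from Cufflinks for each annotated transcript, with a coverage signal beside each. The Cufflinks version and options are not given in the sources used here, and libraries of this kind do not mark strand.

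From these files, FPKM values were summed per gene over transcripts of 200 bases or longer that Cufflinks marked OK in all 4 embryos. Genes with a mean of at least 1 FPKM were tested on log2(FPKM + 0.1) with limma 3.58.1 in R 4.3.3 (variance trend, Benjamini-Hochberg adjustment over 11128 genes), the script being tested on simulated data. Fold changes are on that scale and understate the change of low genes. Approximate read numbers came from coverage, taking 52.2 bases per read, the median step over 200 genes. In that estimate 88.3% of 223 other values came within 0.1 read of a whole number, so they are rough. P-values rest on the spread within the control pair and within the mutant pair, with each variance drawn toward a trend over all genes. Spread within the control pair is the difference between the Foxf2+/+ and Foxf2+/- embryos, so it includes any effect of 1 null allele.

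Coverage was used only for depth and for the approximate read numbers. The 55 genes, the 61 further genes and the marker lists were chosen with earlier results of these data known. Values were printed for genes beyond 1.5-fold from both controls, for the 3 highest of each role, for the 8 largest log2 differences among the 34, and for the 5 largest among the 61. The 16 alternatives changed the pseudocount, filter, scaling, entries, variance model, control grouping or left out 1 embryo.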

Additional observations from a re-analysis of the deposited data

How the results depend on the processing

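Of 466 gene-by-setting comparisons over 30 named genes, 451 kept their direction and their outcome under limma. In 13 the sign changed, and the rest were those of Ccnd1 below. No named gene passed limma under the main settings, so an unchanged outcome says little. The 1.5-fold line was not part of this count, and Wnt2, Fzd4 and Lef1 crossed it in some settings. Lgr5 fell short of that line with a pseudocount of 1, and Ccnd1 without the second mutant. Frzb, Dkk2, Rspo1, Tcf7, Celsr2, Apcdd1 and Cthrc1 passed it only in some runs with 1 embryo left out. The number of tested Wnt genes that passed limma was 0 in all 16 alternatives. Sign changes were confined to 6 genes with small differences. With null-allele number as a linear term, Wnt5b came to -0.0253, Sfrp1 to -0.0656 and Tcf7l1 to -0.0664. With 1 embryo left out, the log2 difference ran from -0.0957 to 0.339 for Wnt5b (below 0 without the Foxf2+/- embryo), from -0.230 to 0.0481 for Fzd2 (above 0 without the first mutant), from -0.0923 to 0.1005 for Sfrp1 and -0.128 to 0.198 for Tcf7l1 (both below 0 without the Foxf2+/- embryo or the second mutant), and from -0.101 to 0.142 for Kremen2 and -0.0457 to 0.177 for Nkd1 (both below 0 without the Foxf2+/+ embryo or the second mutant). Ccnd1 passed with the linear term (log2 difference 1.1) and without the Foxf2+/- embryo (1.08), which made 1 call among the further pathway genes with the linear term and 0 to 1 with an embryo left out.

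Counts over all genes moved more. Against 7 limma calls as reported, there were 13 with a pseudocount of 0.5 or 1 or median-ratio scaling, 14 with upper-quartile scaling, 26 with all entries, 19 with separate genotype means, 18 with the linear term, 2 without a variance trend, 0 without a filter, and 7 to 38 with 1 embryo left out (38 without the Foxf2+/- embryo). Genes beyond 1.5-fold from both controls numbered 153 as reported, 100 and 65 with pseudocounts of 0.5 and 1, 638 without a filter, 34 and 47 with a mean or a maximum of at least 5 FPKM, 280 with all entries and 210 to 566 with 1 embryo left out. Among the 34 Wnt genes that count was 3 as reported, 1 with either larger pseudocount (Wnt16), 1 with either filter at 5 FPKM (Fzd4), and 5 without a filter, which added Wnt6 and Wnt7b. It was 3 to 8 with 1 embryo left out, 8 being the count without the Foxf2+/- embryo, when Lef1, Frzb, Dkk2, Rspo1 and Tcf7 also passed. Without the first mutant the 3 were Frzb, Lef1 and Wnt16, so that Wnt2 and Fzd4 no longer passed. With median-ratio or upper-quartile scaling it stayed at 3, with Lef1 in place of Fzd4. Genes whose groups did not overlap numbered 5087 as reported, 3281 with a mean of at least 5 FPKM and 7586 to 8480 with 1 embryo left out. The causes of these shifts were not tested, beyond the fewer genes or embryos that some settings use. No paired analysis was possible because the controls are different genotypes with no replicate numbers in their labels. With 1 embryo left out, limma assumes that the lone embryo of a group varies like those of the other group.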
